A study of Mus musculus with 6 samples.

Results

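Annexins were examined in the transcriptome of whole kidneys from 45-day-old mice that lack Tsc1 in principal cells. The family was represented by 9 listed genes, Anxa1, Anxa2, Anxa3, Anxa4, Anxa5, Anxa6, Anxa7, Anxa11 and Anxa13, out of 15302 genes in the deposited expression table, and each was found there by its symbol. The 9 genes were chosen by family name with the FPKM of these same 6 libraries in view, so their levels and fold changes are given as a description. No p-value is given for a member, and where a member passed the threshold of the fit over all genes, this describes the fit and supports nothing. Poly A RNA-seq libraries were made from 3 Tsc1-KO kidney samples (Tsc1f/f/Aqp2 Cre, replicates 4, 5 and 6) and 3 wild-type (WT) C57BL/6 kidney samples (replicates 1, 2 and 3). Tsc1 encodes hamartin, a brake on the mTORC1 kinase, and the Aqp2 promoter drives Cre in principal cells of the collecting duct. Cells that never expressed Aqp2 keep the gene, and the WT mice are labelled by the C57BL/6 strain alone, with no Cre control named, so effects of Cre or of strain background cannot be told apart from the loss of Tsc1.

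Annexins are calcium-dependent proteins that bind acidic phospholipids, chiefly phosphatidylserine, on the cytosolic face of membranes. A conserved core of annexin repeats carries the calcium sites, and a variable N-terminal tail binds partners such as S100 proteins and decides what each member does. They are known for membrane repair, vesicle traffic and anchoring of the actin skeleton, and several are abundant in kidney epithelia.

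Between 19568856 and 24647430 reads fell in the listed genes of a library. Levels are in FPKM, fragments scaled to transcript length and to library size, so they can be set beside each other between genes. Tsc1 itself had 7.69, 7.61 and 8.23 FPKM in Tsc1-KO kidneys, against 8.46, 8.91 and 7.49 FPKM in WT kidneys, so whole-kidney RNA did not separate the genotypes by this gene. Across genes, WT replicate 3 had a Pearson r of 0.983 and 0.982 with WT replicates 1 and 2, which had 0.993 with each other. With Tsc1-KO replicates 4, 5 and 6, WT replicate 3 had an r of 0.985, 0.985 and 0.981. It was thus no closer to the other WT libraries than to the Tsc1-KO libraries. A linear model (limma) on log2(FPKM + 0.1) called 279 of 13230 genes at an adjusted p under 0.05, and 260 with limma-voom. The count was 1115 without WT replicate 3, while leaving out Tsc1-KO replicate 6 gave 0 (with 1767 genes at an unadjusted p under 0.05), Tsc1-KO replicate 5 gave 24, WT replicate 1 gave 29 and Tsc1-KO replicate 4 gave 104. Of the intercalated cell markers, 12 of 15 were called higher and 0 lower. Those not called were Car2, Insrr and Slc26a4, with log2 fold changes of 0.16, −0.05 and −0.20. Slc26a4 was lower in each Tsc1-KO library (25.2, 26.8 and 27.1 FPKM, against 29.8, 31.7 and 29.6 FPKM in WT kidneys). The summed level of all 15 was 731 to 861 FPKM in Tsc1-KO kidneys, against 493 to 548 FPKM in WT kidneys. In whole-kidney RNA, more cells of a type and more RNA per cell cannot be told apart.

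The 9 annexins together reached 338, 351 and 386 FPKM in Tsc1-KO kidneys, against 263, 301 and 288 FPKM in WT kidneys. Each Tsc1-KO sum lay above each WT sum. On average the sum was 359 ± 24.6 FPKM in Tsc1-KO and 284 ± 19.1 FPKM in WT kidneys (SD, n = 3 each). Anxa5 and Anxa11 made up the largest shares in Tsc1-KO kidneys, with a mean of 22.3% and 21.9% of the summed FPKM, against 19.4% and 22.0% in WT kidneys. Anxa7 gave 11.96% of the sum in Tsc1-KO and 16.1% in WT kidneys, and Anxa13 gave 1.25% in Tsc1-KO and 2.82% in WT kidneys.

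**Figure D1:**
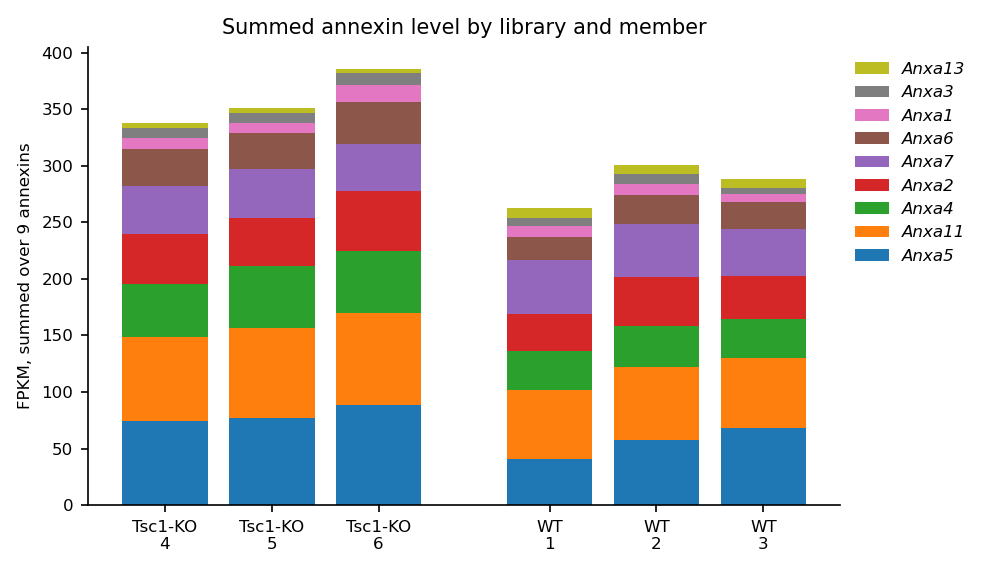
Stacked bars give the FPKM of each of 9 annexins in each library, Tsc1-KO replicates 4 to 6 on the left and WT replicates 1 to 3 on the right. The totals run between 338 and 386 FPKM in Tsc1-KO kidneys and between 263 and 301 FPKM in WT kidneys.

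All 9 members passed the filter of a mean of 0.5 FPKM. In Tsc1-KO kidneys, 7 of 9 members were higher on average and 2 (Anxa7 and Anxa13) were lower. Of all genes tested, 59.8% had a positive log2 fold change. By the limma threshold over all genes, 3 of 9 members were called higher (Anxa4, Anxa6 and Anxa11), where 1.87% of all genes tested were, and 1 of 9 was called lower (Anxa13), where 0.234% of all genes tested were. In 4 of 9 members (those called higher plus Anxa5) each Tsc1-KO library lay above each WT library, as it did for 17.3% of all genes, and for Anxa13 each lay below, as for 8.07% of all genes. Nothing is read from these counts, since values of this contrast were known when the family was chosen. The median log2 fold change of the 9 was 0.33, beside 0.04 for all genes tested, and it was 0.19 without Tsc1-KO replicate 6. The count of called members depended on the libraries. It was 0 when Tsc1-KO replicate 5, Tsc1-KO replicate 6 or WT replicate 1 was left out. It was 1 on leaving out Tsc1-KO replicate 4 or WT replicate 2, and 5 on leaving out WT replicate 3. In the fits with 0 called, 5, 4 and 5 members had an unadjusted p under 0.05, beside 1864, 1767 and 1697 of all genes. With all libraries kept, 5 members and 2535 of 13230 genes did, and nothing is read from these counts either. With 1 library left out, Anxa6, Anxa11 and Anxa13 passed only in the fit that lacked WT replicate 3.

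**Figure D2:**
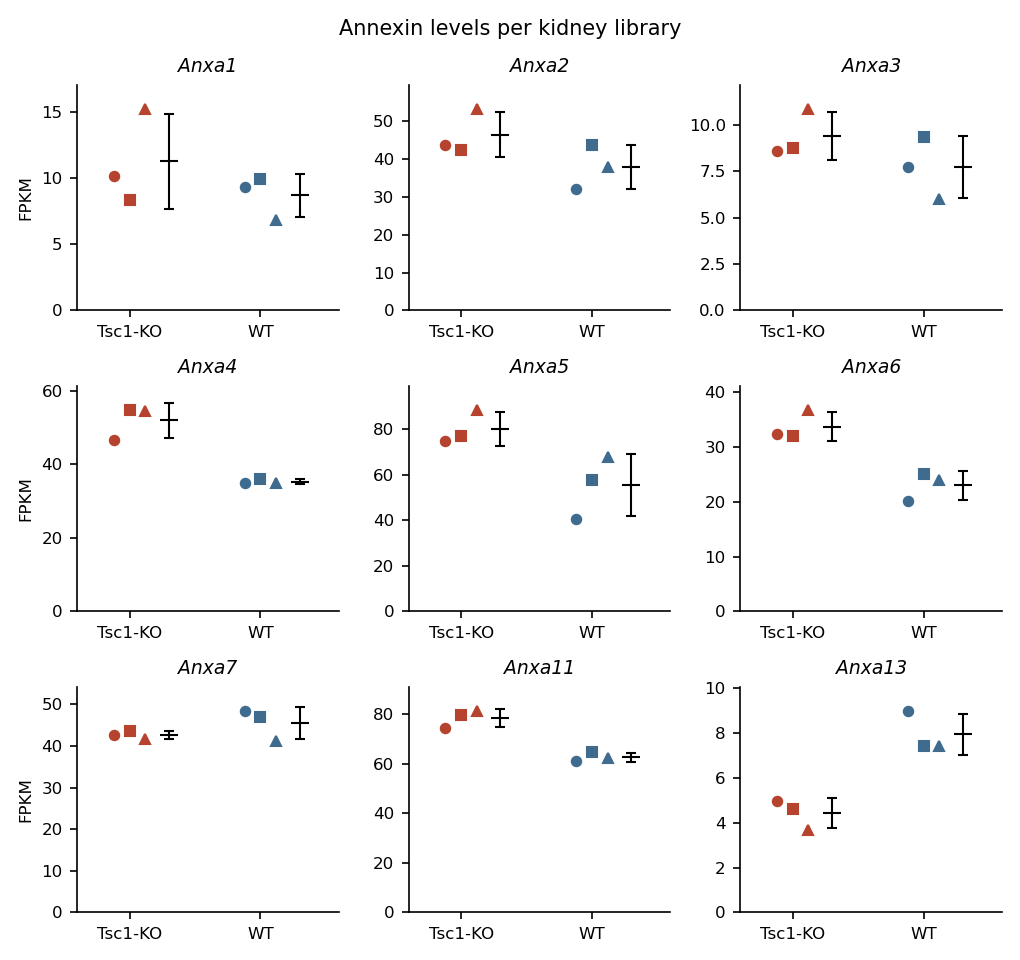
FPKM of each annexin by library, Tsc1-KO left and WT right, with circle, square and triangle for replicates 4, 5 and 6 or 1, 2 and 3 and a bar for the mean ± SD (n = 3). The groups are apart for Anxa4, Anxa5, Anxa6, Anxa11 and Anxa13, and they overlap for Anxa1, Anxa2, Anxa3 and Anxa7.

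Anxa4, an epithelial annexin that binds and orders membranes, had 46.6, 54.9 and 54.5 FPKM in Tsc1-KO kidneys, against 34.9, 36.0 and 35.0 FPKM in WT kidneys. The WT values were almost level while the Tsc1-KO values were spread more widely, and the lowest Tsc1-KO library was 10.6 FPKM above the highest WT library. The means were 52.0 ± 4.68 FPKM in Tsc1-KO and 35.3 ± 0.61 FPKM in WT kidneys (SD, n = 3 each), a log2 fold change of 0.55 ± 0.08 (SE). Anxa4 passed the limma threshold under 9 of 12 alternatives, and it missed that threshold when WT replicate 1 or Tsc1-KO replicate 5 or 6 was left out.

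Anxa11, which binds the calcium sensor ALG-2 (Pdcd6) and S100A6 and tethers RNA granules to lysosomes, had 74.4, 79.5 and 81.3 FPKM in Tsc1-KO kidneys, against 60.9, 64.5 and 62.1 FPKM in WT kidneys. The groups were 9.84 FPKM apart at their nearest libraries, and the log2 fold change was 0.33 ± 0.06 (SE). Of the members, Anxa11 had the smallest SE. Its difference passed the limma threshold under 4 of 12 alternatives.

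Anxa4 and Anxa11 moved together over the 6 libraries, with a Pearson r of 0.99 between their log2 levels and 0.89 after the mean of each group was removed, as a description of 6 libraries. Their promoter windows are shown because these were the called pair most alike. The windows are from RefSeq (GRCm38.p6), with the annotated start 50 bases before the 3′ end of a 300-base window, and 6 of the 9 members matched, all but Anxa3, Anxa6 and Anxa13. Anxa4 has a pair of annotated starts, and the deposited values give 1 level a gene, so the share of each start in the difference cannot be told apart. Capitals mark matches to any of the 5 motifs named in the next paragraph.
Anxa4, chr6:86775065-86775364, minus strand: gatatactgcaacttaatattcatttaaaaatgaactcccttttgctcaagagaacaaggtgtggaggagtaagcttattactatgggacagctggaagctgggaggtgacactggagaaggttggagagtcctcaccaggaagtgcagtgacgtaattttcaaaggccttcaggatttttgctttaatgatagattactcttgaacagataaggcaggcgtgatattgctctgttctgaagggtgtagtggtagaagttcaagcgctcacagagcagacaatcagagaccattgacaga
Anxa4, chr6:86793535-86793834, minus strand: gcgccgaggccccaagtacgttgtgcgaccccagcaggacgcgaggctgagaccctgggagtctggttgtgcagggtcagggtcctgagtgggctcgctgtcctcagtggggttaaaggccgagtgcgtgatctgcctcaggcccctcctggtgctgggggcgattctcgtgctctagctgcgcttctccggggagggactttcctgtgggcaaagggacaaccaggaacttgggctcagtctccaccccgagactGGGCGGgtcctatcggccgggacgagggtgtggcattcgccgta
Anxa11, chr14:25841905-25842204, plus strand: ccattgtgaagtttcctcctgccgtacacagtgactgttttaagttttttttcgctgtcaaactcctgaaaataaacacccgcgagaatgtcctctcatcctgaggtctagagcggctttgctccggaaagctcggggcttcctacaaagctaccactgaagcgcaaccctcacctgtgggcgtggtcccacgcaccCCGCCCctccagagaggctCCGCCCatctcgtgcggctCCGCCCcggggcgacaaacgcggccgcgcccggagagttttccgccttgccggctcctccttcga

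The motifs searched on both strands were the E-box CACGTG, the forkhead motif GTAAACA, the AP-1 motif TGACTCA, the GC box GGGCGG and the TATA motif TATAAA. They occur in 7.15%, 3.65%, 5.2%, 35.7% and 13.6%, in that order, of 32851 windows of this length from all genes. The Anxa11 window held 3 GC boxes, at 53, 34 and 15 bases before the start, all on the strand opposite to the one printed. In the Anxa4 windows the first one printed held none of the 5 motifs and the second held 1 GC box, 6 bases past the start. These matches did not overlap each other. Base composition also set the Anxa4 windows apart, with 43.0% GC and 3 CpG in the first and 65.3% GC and 20 CpG in the second, where the Anxa11 window had 59.7% GC and 25 CpG and the median of all windows was 52.7% GC and 7 CpG. Of the other members, Anxa1 had TATAAA 32 bases before the start and Anxa2 had it 17 bases before, and 1 of the windows of Anxa7 held CACGTG. The Anxa2 window also held 3 GC boxes and the AP-1 motif, 95 bases before the start. The windows of Anxa7, which overlap, held 4 and 1 GC boxes. No forkhead motif was in the windows of the 6 members, which says only that these letters are not there.

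Anxa6, the large annexin with a duplicated core that gathers Ras GTPase-activating protein and protein kinase C at membranes, had 32.4, 32.0 and 36.8 FPKM in Tsc1-KO kidneys, against 20.1, 25.1 and 24.1 FPKM in WT kidneys. Each Tsc1-KO value was above each WT value, by 6.95 FPKM at the nearest pair. The log2 fold change was 0.55 ± 0.10 (SE), and it passed the limma threshold under 4 of 12 alternatives. Rasa1 and Prkca, which encode those partners, had log2 fold changes of 0.03 ± 0.07 and −0.003 ± 0.10 (SE), with limma adjusted p-values of 0.874 and 0.991.

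Anxa5, the phosphatidylserine binder used to label dying cells, was the most abundant annexin per length in Tsc1-KO kidneys. It had 74.7, 77.2 and 88.5 FPKM in Tsc1-KO kidneys, against 40.7, 57.7 and 67.8 FPKM in WT kidneys. The groups did not overlap, but the WT libraries differed by 1.67-fold from lowest to highest, the widest WT spread in the family. The log2 fold change was 0.56 ± 0.18 (SE), close to that of Anxa4 but with a larger error, and Anxa5 passed the limma threshold only without WT replicate 3, at a log2 fold change of 0.72, where it was 0.35 without WT replicate 1.

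Anxa13, a lipid-anchored annexin of intestinal and kidney epithelia that takes part in apical transport, was the member called lower. It had 4.98, 4.62 and 3.67 FPKM in Tsc1-KO kidneys, against 8.999, 7.41 and 7.44 FPKM in WT kidneys. The highest Tsc1-KO library was 2.42 FPKM under the lowest WT library. Its mean was 4.43 ± 0.68 FPKM in Tsc1-KO and 7.95 ± 0.91 FPKM in WT kidneys (SD, n = 3 each), a log2 fold change of −0.84 ± 0.14 (SE). These values rest on 112 to 249 reads a library, and the call held under 6 of 12 alternatives.

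The levels of Anxa4 and Anxa13 can also be given as a ratio within each library. The ratio of Anxa4 to Anxa13 was 9.34, 11.9 and 14.8 in Tsc1-KO kidneys, against 3.88, 4.86 and 4.70 in WT kidneys. Within a library this ratio does not depend on the library's scaling. Its groups were apart, which follows from the levels given above for each gene and is no further result.

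Anxa7 (synexin), which promotes calcium-dependent membrane fusion in secretion, was close to level. It had 42.7, 43.7 and 41.7 FPKM in Tsc1-KO kidneys, against 48.5, 46.9 and 41.3 FPKM in WT kidneys. The Tsc1-KO values lay inside the WT range, and the log2 fold change was −0.09 ± 0.07 (SE). Anxa11 and Anxa7 share a long N-terminal tail. The ratio of Anxa11 to Anxa7 was 1.74, 1.82 and 1.95 in Tsc1-KO kidneys, against 1.26, 1.38 and 1.505 in WT kidneys. These groups did not overlap, which follows from the levels of both genes.

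Anxa2, which pairs with S100A10 and binds plasminogen and its activator at the cell surface, had 43.8, 42.3 and 53.3 FPKM in Tsc1-KO kidneys, against 32.1, 43.8 and 37.8 FPKM in WT kidneys. Tsc1-KO replicate 6 was above the WT libraries, and WT replicate 2 was level with Tsc1-KO replicate 4. The log2 fold change was 0.30 ± 0.13 (SE), with 0.19 without Tsc1-KO replicate 6 and 0.18 without WT replicate 1. S100a10 had 124, 110 and 125 FPKM in Tsc1-KO kidneys, against 103, 111 and 106 FPKM in WT kidneys, with a log2 fold change of 0.16 ± 0.07 (SE) and a limma adjusted p of 0.261.

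Anxa1, the glucocorticoid-induced annexin that signals through formyl peptide receptors, had 10.2, 8.35 and 15.2 FPKM in Tsc1-KO kidneys, against 9.30, 9.93 and 6.87 FPKM in WT kidneys. Tsc1-KO replicate 6 was the highest library and Tsc1-KO replicate 5 lay inside the WT range, so the groups overlapped. The log2 fold change of 0.34 ± 0.24 (SE) was 0.10 without Tsc1-KO replicate 6 and 0.18 without WT replicate 3.

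Anxa3, known from neutrophils, had 8.58, 8.73 and 10.9 FPKM in Tsc1-KO kidneys, against 7.73, 9.37 and 6.03 FPKM in WT kidneys. WT replicate 2 was above both lower Tsc1-KO libraries. The log2 fold change was 0.30 ± 0.17 (SE). Leaving out WT replicate 3 gave 0.13, and leaving out Tsc1-KO replicate 6 gave 0.19.

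**Figure D3:**
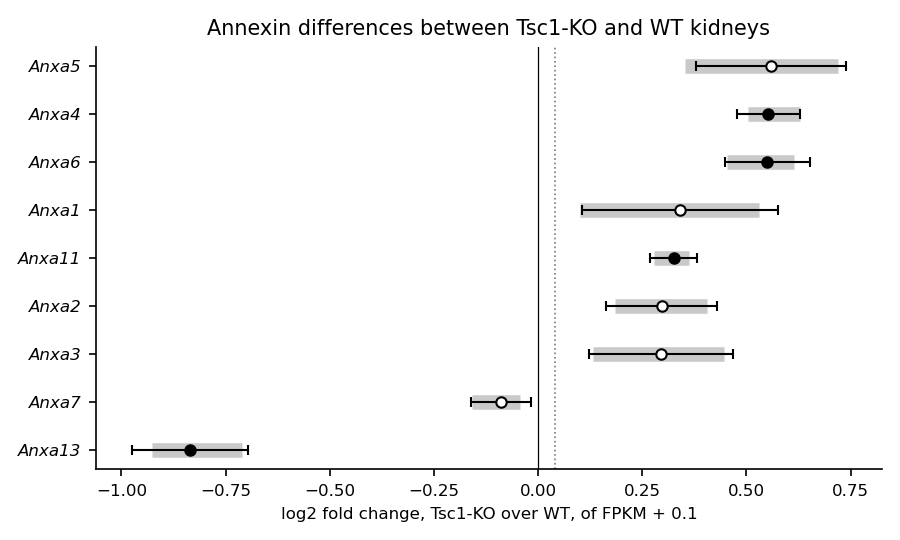
Log2 fold change of FPKM + 0.1, Tsc1-KO over WT, for each annexin (circle, filled where the limma threshold was passed) with its SE (line) and the range over 12 alternatives (grey band). The dotted line is the median of all genes tested, 0.04. Bands stay on 1 side of 0 for all 9 annexins, between 0.51 and 0.63 for Anxa4 and between −0.93 and −0.71 for Anxa13.

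The order of levels per length is given for each genotype, and Anxa2, Anxa6 and Anxa1 held the same place in both. In Tsc1-KO kidneys it was Anxa5, Anxa11, Anxa4, Anxa2, Anxa7, Anxa6, Anxa1, Anxa3 and Anxa13, with overlapping ranges between Anxa5 and Anxa11, Anxa4 and Anxa2, Anxa2 and Anxa7, and Anxa1 and Anxa3. In WT kidneys the order was Anxa11, Anxa5, Anxa7, Anxa2, Anxa4, Anxa6, Anxa1, Anxa13 and Anxa3, and neighbours were apart only between Anxa4 and Anxa6 and between Anxa6 and Anxa1. Anxa4 stood at place 3 in Tsc1-KO and at place 5 in WT kidneys. Anxa13 lay below Anxa3 in each Tsc1-KO library, while the ranges of the pair overlapped in WT kidneys.

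The table also held 2 annexins outside the listed 9. Anxa9, whose calcium sites are degenerate, had 1.73, 1.83 and 2.07 FPKM in Tsc1-KO kidneys, against 1.77, 1.87 and 1.85 FPKM in WT kidneys, a log2 fold change of 0.03 ± 0.12 (SE) whose sign turned under another scaling. Anxa8 had 0.444, 0.809 and 0.664 FPKM in Tsc1-KO kidneys, against 0.496, 0.399 and 0.635 FPKM in WT kidneys, from 17 to 31 reads a library. Neither was called.

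Once the mean of each group was removed, the members split in how their libraries deviated. Anxa2 and Anxa6 deviated together (Pearson r of 0.96), as did Anxa5 and Anxa6 (0.87), Anxa1 and Anxa3 (0.84) and Anxa4 and Anxa11 (0.89). Anxa13 deviated against Anxa6 (−0.90) and Anxa2 (−0.88), and Anxa7 against Anxa5 (−0.85). Anxa1 and Anxa5 showed little relation (−0.08). Each value is over 6 libraries with the group means taken out, the libraries share their scaling, and the values are a description.

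**Figure D4:**
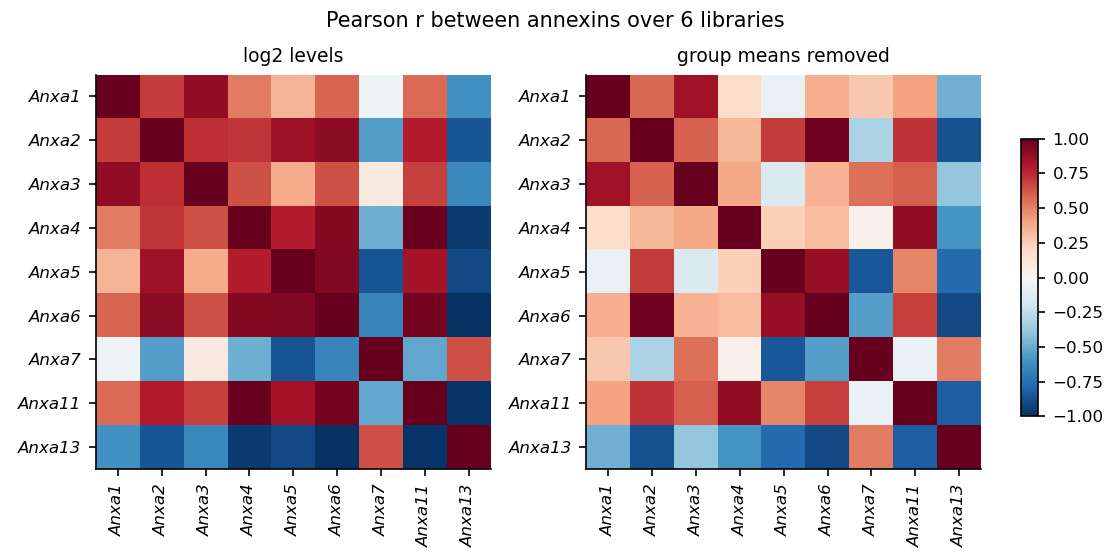
Pearson r between annexins over 6 libraries, from log2 levels on the left and after removing group means on the right, on a colour scale from −1 (blue) to 1 (red). Anxa4 and Anxa11 keep a high r in both panels (0.99 and 0.89), and Anxa13 is negative against all but Anxa7.

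By likeness over the same 6 libraries among 12125 other genes with a mean of 1 FPKM or more, Anxa4 was nearest to Sgpp2, Grik5 and Slc4a1 (r of 0.999 for each). Slc4a1 encodes the basolateral anion exchanger of A-intercalated cells, and it had a mean of 30.2 FPKM in Tsc1-KO and 12.5 FPKM in WT kidneys. Genes near Anxa11 were Spp1 and Serpinb6b (0.998 and 0.997), where Spp1 encodes osteopontin, with 660 FPKM in Tsc1-KO and 362 FPKM in WT kidneys. Anxa1 was nearest to Tyrobp, Tap1 and St3gal6 (0.993, 0.992 and 0.991), and Tyrobp encodes an adaptor of myeloid cell receptors. Anxa5 was nearest to Tmem52b, Zbtb49 and Arl4c, Anxa6 to Cttnbp2nl, Ncstn and Ivns1abp, and Anxa13 to Notum, 9530077C05Rik and Paqr7. Anxa2 was nearest to Aurka, Tagln2 and Bcam, Anxa3 to Pmp22, Rap2a and Rapgef4, and Anxa7 to Accs, Tmem175 and 1600014C10Rik. With 6 points and this many genes compared, these values of r are a description and say nothing of shared control.

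Summed cell type markers are given beside the members, since some ran with them. Anxa4 ran with intercalated cell markers, which summed to 731, 861 and 829 FPKM in Tsc1-KO kidneys, against 493, 548 and 535 FPKM in WT kidneys (r of 0.99, and 0.88 with group means removed). For Anxa11 the same list gave an r of 0.99, and 0.89 with group means removed. Car2, which was not called, gave the largest part of the intercalated cell sum (271, 282 and 280 FPKM in Tsc1-KO, 240, 265 and 241 FPKM in WT kidneys). Tubular injury genes also gave a high r, at 0.975 for Anxa4 and 0.986 for Anxa11. With group means removed, those were 0.73 and 0.86. Most of the injury sum was Spp1 (563, 668 and 748 FPKM in Tsc1-KO, 338, 387 and 362 FPKM in WT kidneys). Since Spp1 was also the gene nearest to Anxa11, the r of Anxa11 with this sum largely repeats that value. The summed macrophage and myeloid markers were 96.7, 82.7 and 128 FPKM in Tsc1-KO kidneys, against 86.0, 95.8 and 78.1 FPKM in WT kidneys, and the 6 libraries fell in the same order as by Anxa1 (r of 0.98, and 0.97 with group means removed). Of the 13 myeloid markers tested, 0 were called by limma, with 1 at an unadjusted p under 0.05 and 0 by limma-voom. T and B cell markers gave nearly as high a value for Anxa1 (r of 0.97, and 0.96 with group means removed). Their sum was low, at 2.78 to 4.68 FPKM in Tsc1-KO and 2.53 to 3.19 FPKM in WT kidneys.

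Anxa3 ran with podocyte markers, which summed to 80.1, 93.4 and 109 FPKM in Tsc1-KO kidneys, against 76.2, 97.0 and 64.8 FPKM in WT kidneys (r of 0.96, and 0.95 with group means removed). Endothelial markers gave nearly as high a value for Anxa3 (0.94 each way), with 222 to 280 FPKM in Tsc1-KO and 137 to 295 FPKM in WT kidneys, lowest in WT replicate 3. Anxa5 ran with principal cell markers, at 743, 804 and 805 FPKM in Tsc1-KO kidneys, against 611, 667 and 771 FPKM in WT kidneys (r of 0.95, and 0.91 with group means removed). Aqp2, which was not called, gave the largest part of that sum (252, 287 and 273 FPKM in Tsc1-KO, 190, 216 and 285 FPKM in WT kidneys). Neutrophil and urothelial markers gave Anxa5 an r of 0.76 and 0.80, and 0.89 and 0.88 with group means removed. Of 14 principal cell markers 3 were called higher and 0 lower, with 8 at an unadjusted limma p under 0.05. Of those 8, Fxyd4 alone was lower (49.4, 43.4 and 49.4 FPKM in Tsc1-KO, 57.2, 59.8 and 64.3 FPKM in WT kidneys). Aqp3 and Aqp4, not called, were lower on average (log2 fold changes of −0.16 and −0.19). Of 7 podocyte and 10 endothelial markers 0 were called by limma or limma-voom, with 0 at an unadjusted p under 0.05. Anxa2 had its highest r with fibroblast and matrix markers (0.84, and 0.71 with group means removed). Of these markers 3 of 13 were called higher, with 140 to 223 FPKM in Tsc1-KO and 101 to 118 FPKM in WT kidneys. The strongest value of Anxa2 was a negative one with proximal tubule markers (−0.93, and −0.90 with group means removed). Anxa7 had no r above 0.29, though with group means removed it had 0.65 with endothelial and 0.43 with podocyte markers. It ran most against urothelial markers (−0.94, and −0.95 with group means removed), at 19.4 to 21.4 FPKM in Tsc1-KO and 13.4 to 25.8 FPKM in WT kidneys. Anxa6 had its highest r with tubular injury genes (0.97, and 0.79 with group means removed), a sum that is mostly Spp1. Anxa13 ran against the same injury sum (r of −0.996, and −0.97 with group means removed), which was 889 to 1132 FPKM in Tsc1-KO and 580 to 659 FPKM in WT kidneys with 1 of 11 genes called higher, and against intercalated cell markers (−0.96, and −0.66 with group means removed). Its only positive r was with proximal tubule markers (0.76), a sum that is mostly the androgen-regulated Kap. No marker of these lists was at 0 in every library, and their part in the annexin differences was not tested.

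**Figure D5:**
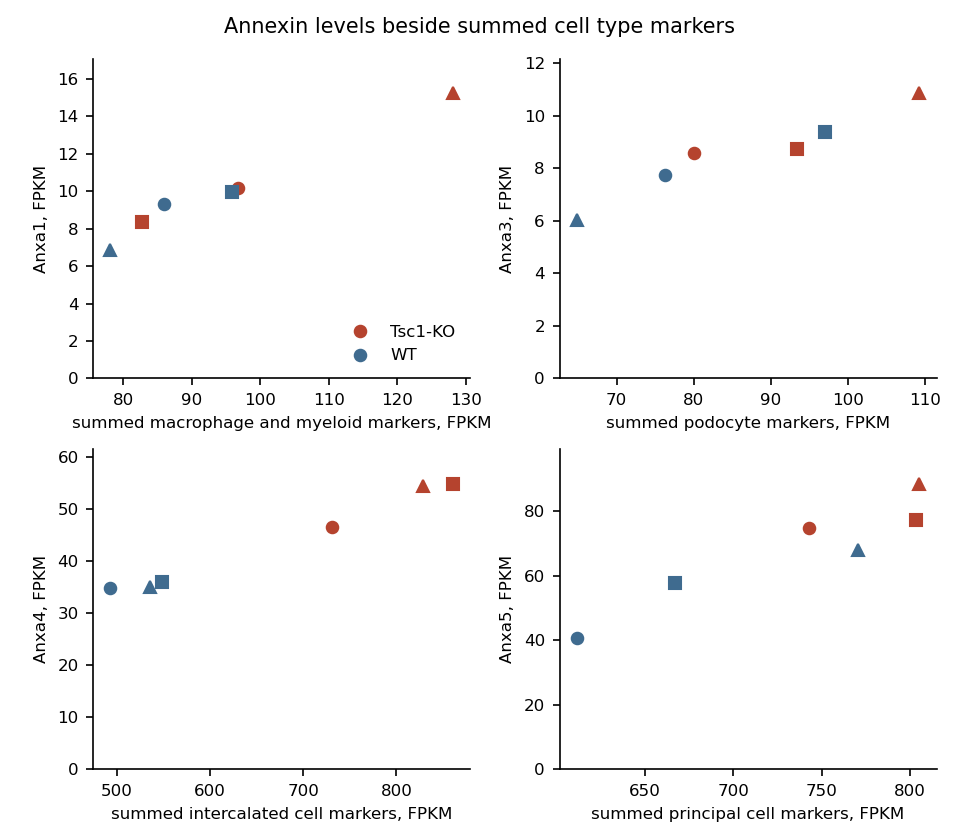
FPKM of Anxa1, Anxa3, Anxa4 and Anxa5 in each library (vertical) against the summed FPKM of the marker list with which each had its highest positive r (horizontal), Tsc1-KO in red and WT in blue, with symbols as replicates 4, 5, 6 and 1, 2, 3 in the order circle, square, triangle. The groups lie apart for Anxa4 with intercalated cell markers (731 to 861 against 493 to 548 FPKM) and are mixed for Anxa1 and Anxa3.

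Genes that work with annexins were mostly not called, as was the case for all genes, of which 279 of 13230 were called. An unadjusted p under 0.05 in the same limma fit was found for 2535 of the 13230. These lists were put together with results of these kidneys known. Of annexin partners, 13 of 15 were in the table and 12 were tested, with 0 called by limma, 0 by limma-voom and 2 at an unadjusted p under 0.05, and a median log2 fold change of 0.14. The smallest p was that of Ahnak, a giant scaffold held at the membrane by the Anxa2 and S100A10 complex. Ahnak had 7.89, 8.04 and 11.2 FPKM in Tsc1-KO kidneys, against 5.83, 6.62 and 6.06 FPKM in WT kidneys, with a log2 fold change of 0.53 ± 0.15 (SE) and a limma adjusted p of 0.121. Pdcd6, the partner of Anxa11, was level, at a mean of 51.8 FPKM in Tsc1-KO and 51.6 FPKM in WT kidneys (limma adjusted p of 0.967).

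Among other genes of membrane repair (such as ferlins, EHD proteins, calpains and ESCRT-III subunits), 20 were tested, with 0 called by limma, 0 by limma-voom and 7 at an unadjusted p under 0.05. Without WT replicate 3, 1 was called. Their median log2 fold change was 0.12. Capn1, the large subunit of calpain 1, had the smallest p, with 13.1, 14.8 and 15.6 FPKM in Tsc1-KO kidneys, against 10.4, 11.6 and 12.2 FPKM in WT kidneys (log2 fold change 0.35 ± 0.09 SE, limma adjusted p of 0.118). Copines, another family of calcium-dependent lipid binders, had 5 genes tested, with 0 called by limma, 0 by limma-voom and 0 at an unadjusted p under 0.05. The smallest p among them was that of Cpne8, with a log2 fold change of 0.25 ± 0.17 (SE) and a limma adjusted p of 0.488.

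Genes that expose, hide or recognise phosphatidylserine, the lipid that annexins bind, had 20 members tested, of which 1 was called higher and 0 lower, with a median log2 fold change of 0.05. That gene was Pros1, which encodes protein S, a bridge between exposed phosphatidylserine and TAM receptors. It had 13.0, 13.9 and 16.9 FPKM in Tsc1-KO kidneys, against 6.77, 9.19 and 6.16 FPKM in WT kidneys, with a log2 fold change of 0.99 ± 0.17 (SE) and a limma adjusted p of 0.0373. The groups did not overlap, and over the alternatives the adjusted p ran between 0.0282 and 0.157. The call was lost on leaving out WT replicate 1 or any 1 of the Tsc1-KO libraries, and with no variance trend.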

How the data were processed

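Total kidney RNA was poly A selected and sequenced on an Illumina HiSeq instrument. For the FPKM that the authors deposited per library, alignment was by HISAT2 2.0.4 and counting by HTSeq 0.9.1, and the genome build is not given in the sources used here. The deposited table also holds the authors' mean normalised counts (a signal pooled by group), the authors' own fold changes and p-values, and shortlists of genes chosen by them, and none of these was used as a level or in a test. The mean normalised counts did enter the recovery of reads from the FPKM. Read counts and limma-voom results given here therefore rest on them. Reads recovered from the FPKM steps came out whole (within 0.02) for 100% of 90069 values of up to 10000 reads.

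FPKM were taken as log2(FPKM + 0.1) where the mean over libraries reached 0.5 FPKM. They were fitted with limma (3.58.1, R 4.3.3) with a variance trend, 2-sided, with Benjamini-Hochberg adjustment over 13230 genes, and called at an adjusted p under 0.05. Log2 fold changes are on that scale and so understate low genes. The study's methods name no test for this table. The fit was also run on simulated data in which chosen genes had set changes, larger than those of the annexins. All genes there shared the same extra spread, and no library stood apart. The simulation therefore says nothing of how the calls depend on the libraries kept. Figures and descriptive values were made with Python (3.11.15), pandas (2.3.3) and matplotlib (3.10.9).

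The members and all gene lists were chosen with earlier results of these data known. Named genes were the 9 members, other annexins of the table, Tsc1, up to 4 called genes a list (if none, that of smallest p) and the 3 genes most alike each member, of which 1 is not reported here. Alternatives were a pseudocount of 1 FPKM, no filter, a filter at 1 FPKM, median-of-ratios scaling, no variance trend, limma-voom on the recovered reads, and each library left out. The labels do not say that libraries of a group came from separate mice, so p-values measure the spread between these libraries, and with 3 libraries a group an exact permutation test cannot go below 0.1.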

Additional observations from a re-analysis of the deposited data

How the results depend on the processing

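Over the alternatives the 9 annexins kept the sign of their fold changes, while the calls depended on the libraries kept. The count of annexins called was 2 with median-of-ratios scaling, 2 with limma-voom, 1 with no variance trend and 0 to 5 with 1 library left out. Over all genes it was 0 to 1115 with 1 library left out (0 without Tsc1-KO replicate 6, where 1767 genes had an unadjusted p under 0.05, and 1115 without WT replicate 3). The median log2 fold change of the annexins was 0.19 to 0.44 with 1 library left out, lowest without Tsc1-KO replicate 6. Membrane repair genes called numbered 0 to 1, and phosphatidylserine genes called 0 to 1, with 1 library left out, and the phosphatidylserine count was 0 with no variance trend. The log2 fold change of Anxa9 was −0.011 with median-of-ratios scaling, −0.0082 with limma-voom and −0.036 to 0.089 with 1 library left out. The cause of these changes was not tested. No paired analysis was possible because the groups share no replicate number. Depth limits Anxa13 most among the 9 (112 to 249 reads a library).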

Other observations

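The spread among WT kidneys differed widely between annexins. From the lowest to the highest WT library the level differed by 1.03-fold for Anxa4 and 1.06-fold for Anxa11, against 1.67-fold for Anxa5, 1.55-fold for Anxa3 and 1.45-fold for Anxa1. WT replicate 1 held the lowest WT value of 5 annexins, WT replicate 3 of 3 and WT replicate 2 of 1. In Tsc1-KO kidneys, replicate 6 held the highest value of 6 annexins, replicate 5 of 2 and replicate 4 of 1. Anxa7 was the most even annexin among Tsc1-KO kidneys, at 1.05-fold, and Anxa1 the least, at 1.82-fold.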
